A study of Lotus japonicus with 36 samples.

Results

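Root nodules of Lotus japonicus were followed over days of nitrate supply and nitrate withdrawal, and 60 loci whose mean level on days 2 and 3 after withdrawal stood highest over that of untreated nodules, the last nitrate day and the other withdrawal days are described here. They were taken from 41299 loci of a deposited FPKM table (fragments per kilobase of transcript model, scaled to library size). Each locus was represented by its model with the highest mean FPKM, and 15213 loci had a mean of at least 5 FPKM on both of these days. Among those, the members had the highest ratio of the lower of the R2 and R3 means to the highest of the T0, T6, R1, R4 and R5 means, each mean taken with 1 FPKM added. The members were thus chosen by the FPKM means of these 7 groups, and their levels are given as a description with no test. The nitrate days T1 to T5 did not enter the ratio or the minimum level, and all tests are among these 5 groups. They entered the mean that picked the model of a locus, which made no choice in the 52 members with 1 model at their locus.

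All plants were of the genotype MG-20, a Lotus japonicus accession, and all libraries came from whole root nodules. Nodules of T0 were untreated and 4 weeks past inoculation. The T groups 1 to 6 carry the number of days on 10 mM KNO3, and the R groups 1 to 5 the number of days since its removal. Each of the 12 groups had 3 libraries, called biological replicates in the series text. How long nitrate had been supplied when it was removed is not stated in these sources. The groups hold no untreated nodules of a later age, so days of treatment and plant age cannot be told apart.

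A legume nodule is a root organ in which rhizobia fix atmospheric nitrogen in exchange for plant carbon. Ample nitrate in the soil makes this exchange dispensable, and supplying it to mature nodules is known to reduce nitrogen fixation and to lead to early senescence, in which bacteroids and their host cells are broken down. The loss of fixation after short exposure is known to be reversible when nitrate is withdrawn. The IDs could not be paired with gene names: a RefSeq gene table of another assembly matched 0 of them, so no function is given for any member, and nodule marker genes could not be checked. In the IDs, the digit after Lj names the chromosome, with 0 for sequence not placed on one.

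Library totals ran from 34194054 to 45795038 estimated counts. Within groups, libraries correlated with r between 0.945 and 0.976 on the log2 CPM scale (36 pairs). RNA from whole nodules does not separate more cells of a kind from more RNA per cell. The scaling factors of the TMM method, which the FPKM values do not contain, averaged 0.849 in T6, 0.906 in R1, 1.01 in R2, 0.992 in R3 and 0.929 in R4. With FPKM divided by these factors, 46 of the 60 members stayed among the first 60, the lowest ratio was 1.12 and the median ratio went from 1.37 to 1.27.

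For the most part, R2 and R3 stood only a little above the highest of the other 5 groups that the choice used. Only 2 ratios were above 2 and 11 above 1.5, beside a median of 0.765 over the 15213 eligible loci. In 16 members every one of the 6 R2 and R3 libraries lay above every one of the 15 libraries of T0, T6, R1, R4 and R5, as did 0.638% of eligible loci. In 23 members 5 of the 6 libraries lay above all others, in 10 members 4, in 7 members 3, in 3 members 2 and in 1 member only 1. The single highest of these 21 libraries was an R2 or R3 library in all 60 members. The choice used the means of these same libraries, so such counts largely follow from it, and nothing is read from them. Apart from the count of 16, they were not made for the eligible loci. These counts leave out T1 to T5, where 7 members had a mean above both R2 and R3, which was also not counted for the eligible loci.

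**Figure D1:**
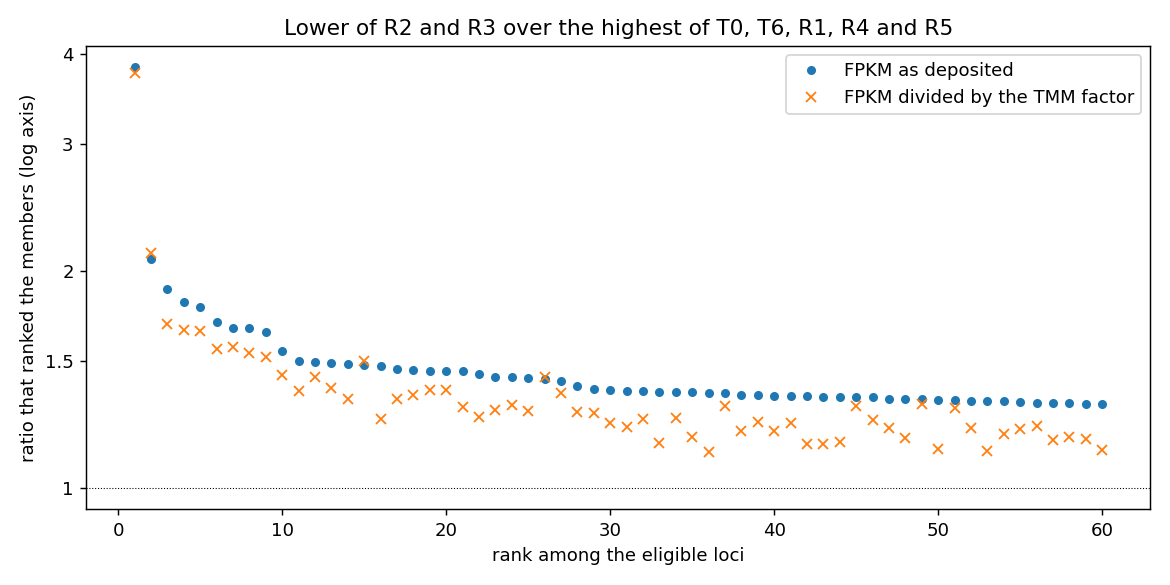
Ratio of the lower of the R2 and R3 means to the highest of the T0, T6, R1, R4 and R5 means (log axis), by rank of the 60 members, from FPKM as deposited (circles) and from FPKM divided by the TMM factor (crosses). The ratio falls from 3.83 at rank 1 to 1.31 at rank 60, and every cross lies above 1.

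Near the end of the list the values were close together. Lj5g3v2183730 at rank 59 stood at 469 ± 60.8 FPKM in R2 and 478 ± 29.0 FPKM in R3, beside 358 ± 34.2 FPKM in R1 (SD, n = 3), and Lj1g3v4047290 at rank 60 at 644 ± 70.0 and 733 ± 112 FPKM beside 492 ± 158 FPKM in R1. Just outside, Lj1g3v2536140 had 9.42 ± 1.97 FPKM in R2 and 8.03 ± 0.66 FPKM in R3 beside 5.91 ± 0.0964 FPKM in R1, and Lj0g3v0107649 had 9.63 ± 1.25 and 10.1 ± 0.581 FPKM beside 7.15 ± 0.417 FPKM in R4. Their ratios were 1.31 on both sides of the limit for ranks 60 and 61.

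The 2 members ranked first rested on single libraries. Lj1g3v2582370 was at 17.49, 2.92 and 1.62 FPKM in R2 replicates 1 to 3 and at 0.20, 18.14 and 1.51 FPKM in R3 replicates 1 to 3. Lj1g3v2582350, which stood close to it in the order of the IDs, was at 12.34, 2.09 and 1.96 FPKM in R2 and at 0.45, 22.88 and 3.67 FPKM in R3. In both, R2 replicate 1 and R3 replicate 2 were far above the other 4 libraries of these days, and R3 replicate 1 lay within the range of the untreated nodules. The next highest library of both was T4 replicate 3, at 5.51 and 5.68 FPKM beside at most 1.00 FPKM in the other T4 libraries, and Lj1g3v2582370 also reached 4.63 FPKM in T1 replicate 2 beside at most 0.28 FPKM in the others of T1. Without R2 replicate 1 and R3 replicate 2, the ratio was 0.934 for Lj1g3v2582370 and 0.973 for Lj1g3v2582350. The R2 and R3 means of Lj1g3v2582370 were then 2.27 and 0.855 FPKM, beside 0.987 FPKM in R5, so only R2 stayed above. Those of Lj1g3v2582350 were 2.025 and 2.06 FPKM, both under the 2.11 FPKM of R5. Neither member differed detectably over T1 to T5 (edgeR adjusted p = 0.18 and 0.189).

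**Figure D2:**
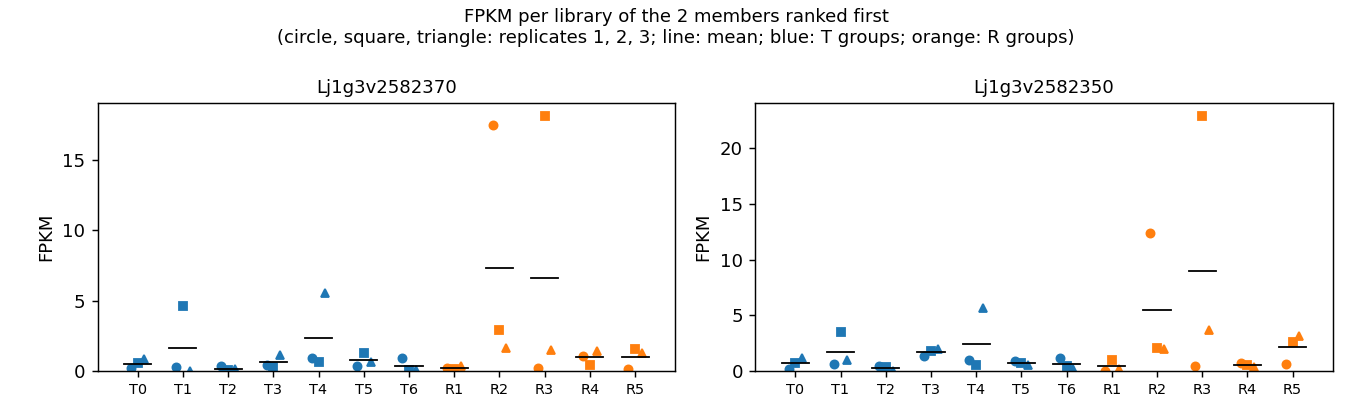
FPKM of the 2 members ranked first in each library, by group (linear axes), with replicates 1, 2 and 3 as circles, squares and triangles and the group mean as a line. In both, the R2 and R3 means are carried by 1 library each, at 17.49 and 18.14 FPKM in Lj1g3v2582370 and at 12.34 and 22.88 FPKM in Lj1g3v2582350.

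The median coefficient of variation over the 60 members was 15.1% in R2 and 16.4% in R3. It was 19.2% in T0, 30.2% in T6, 26.8% in R1, 30.1% in R4 and 21.4% in R5. On T1 to T5 it ran from 20.6% to 31.4%, and it was not computed for the eligible loci. The R3 mean was above the R2 mean in 39 members (65.0%), beside 48.6% of the eligible loci. Every R3 library was above every R2 library in 4 members (6.67%) and below in 3 (5.00%), beside 10.9% and 11.5% of the eligible loci, so the order of these days was rarely free of overlap. Every R2 library lay above every R1 library in 44 members, beside 30.8% of the eligible loci, and every R3 library above every R4 library in 47, beside 27.4%. The median ratio was 1.49 for R2 to R1 and 1.89 for R3 to R4, each with 1 FPKM added, beside 1.07 for both over the eligible loci. These directions follow from the choice of members, and nothing is read from them. The comparison group that came closest to R2 and R3 was R1 in 28 members, R4 in 13, R5 in 12 and T6 in 7, and it was T0 in none. This split was not made for the eligible loci or with TMM-scaled FPKM, and nothing is read from it. In R1, replicate 3 was the lowest library in 39 members, and in R4, replicate 2 was the highest in 40, beside 40.3% and 24.7% of the eligible loci. Replicate 3 of R2 was the lowest R2 library in 44 members, beside 35.2%. In R5, replicate 1 was the lowest in 41 members and replicate 2 the highest in 41, beside 49.3% and 49.9%.

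As a share of its own R2 and R3 mean, the median member stood at 10.7% in T0, 9.82% in T1, 10.7% in T2, 28.4% in T3, 26.0% in T4, 34.6% in T5, 50.3% in T6, 63.4% in R1, 54.0% in R4 and 49.1% in R5. The median hides a wide range, since the 25 members called in neither step of the tests among T1 to T5 had a median of 42.1% in T0. With 1 FPKM added, T6 was at least 2 times T0 in 33 of the 60, a count not made for the eligible loci. It was at least 10 times T0 in 16, beside 5.15% of the eligible loci. In R5 the level with 1 FPKM added was still at least 2 times that of T0 in 37 members and within 2 times of it in 23, and 12.9% of the eligible loci had such an excess in R5. All these shares are divided by means that the choice required to be high, so nothing is read from them.

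**Figure D3:**
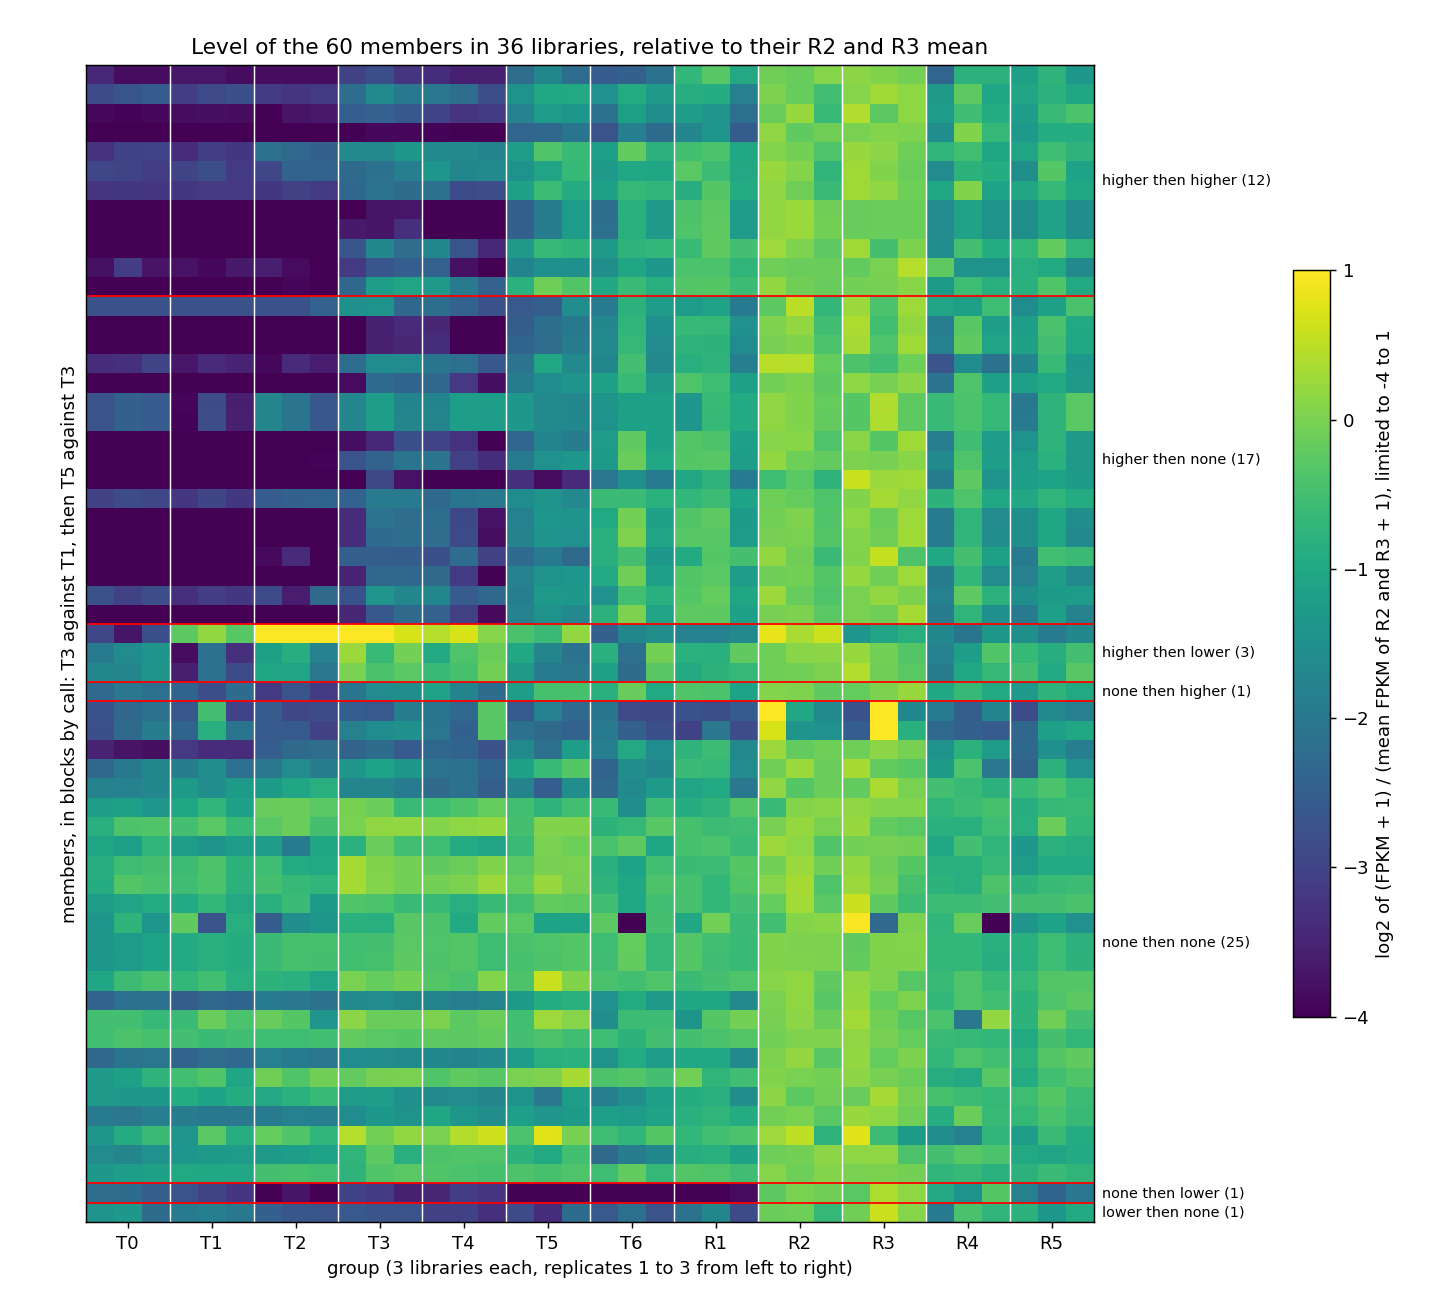
Level of the 60 members (rows) in the 36 libraries (columns, 3 per group), as log2 of FPKM + 1 over the R2 and R3 mean + 1, limited at both ends as the colour bar shows, with rows in blocks by the calls in T3 against T1 and then T5 against T3. The 12 members higher in both steps and the 17 higher in the first step are mostly dark up to T2 and brighter from T5 on, and the 2 rows with single bright R2 and R3 libraries at the top of the block of 25 are the members ranked first.

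On the nitrate days that the choice did not use, most members changed, and more of them rose than fell. The choice held T0 below R2 and R3, however. The median ratio of T1 to T0, with 1 FPKM added, was 0.987 in the members, beside 1.07 over the eligible loci. A low level in T1 may thus follow in part from the choice, and the eligible models were not matched for their T0 level. Over T1 to T5, 56 of the 60 differed (edgeR quasi-likelihood F test, adjusted p under 0.05 over all models), beside 68.7% of the eligible models and 52.0% of all 50475 models tested. All 60 had passed the filter on low counts. Between T1 and T3, 32 members rose by at least 2-fold with an adjusted p under 0.05, beside 12.4% of the eligible and 8.34% of all models, and 1 fell, beside 5.65% and 6.49%. By the adjusted p alone 47 were higher and 1 lower in T3, beside 24.1% and 17.1% of the eligible and 15.1% and 12.9% of all models. The median log2 fold change of the members was 1.36, beside 0.04 over the eligible and 0.06 over all models tested. With members of nearly equal counts taken once, 30 of 57 rose, and with 5 neighbours on chromosome 1 taken once, 28 of 56.

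From T3 to T5 fewer members changed. In T5, 13 were higher than in T3, beside 8.07% of the eligible and 6.08% of all models, and 4 were lower, beside 4.07% and 4.58%. By the adjusted p alone 17 were higher and 4 lower in T5, beside 16.8% and 10.7% of the eligible and 10.8% and 8.55% of all models. The median log2 fold change was 0.40, beside 0.05 over the eligible and 0.04 over all models. These counts depended on T3 replicate 1: without it 7 were higher and 3 lower. It was the lowest T3 library in 10 of the 13 members that rose, beside 53.3% of all members and 32.9% of the eligible loci. The comparison shares the T3 libraries with that of T3 with T1, so a low T3 library lowers one change and enlarges the other.

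**Figure D4:**
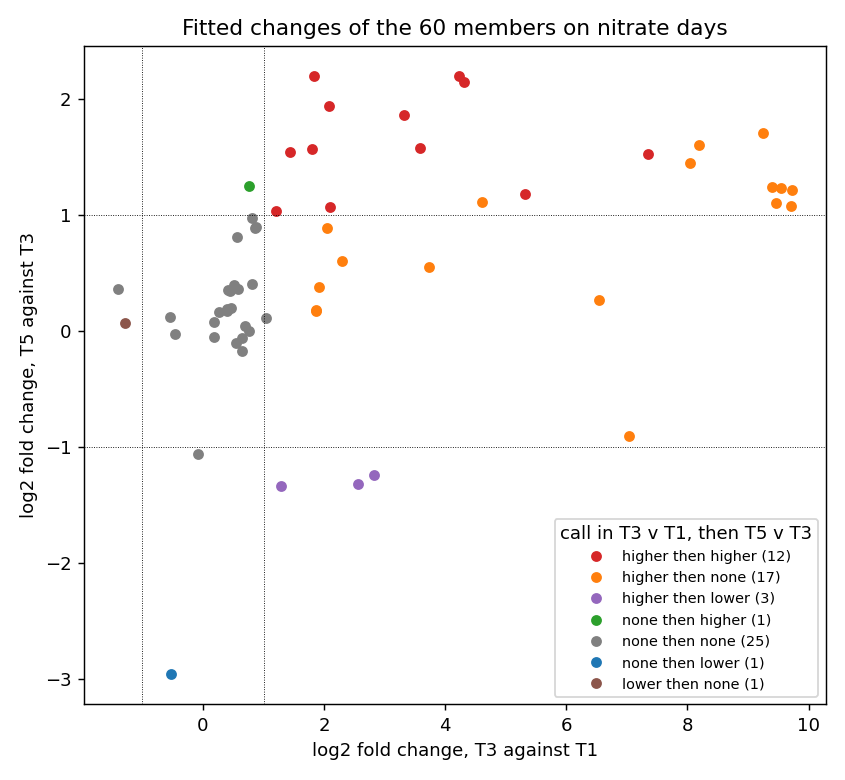
Fitted log2 fold change of T5 against T3 (y axis) beside that of T3 against T1 (x axis) for the 60 members, coloured by their calls in both steps, with dotted lines at a 2-fold change. Rises in the first step reach 9.72 on the log2 scale, and 25 members, in grey, were called in neither step.

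The calls split the members into 7 profiles, of which 3 held 54 members in all. In these, 12 rose in both steps and 25 were called in neither. The other 17 rose between T1 and T3 and were not called between T3 and T5. The 2 calls were not counted jointly for the eligible models, so nothing is read from the size of a profile. The 12 that rose in both steps had a median of 1.38% of their R2 and R3 mean in T1, 12.2% in T3, 38.0% in T5 and 63.4% in R1. Lj4g3v0166190 and Lj3g3v1113160 had the largest second rises. Lj4g3v0166190 was at 0.04, 0.06 and 0.36 FPKM in T1, at 2.51, 3.52 and 3.54 FPKM in T3 and at 11.98, 12.37 and 15.10 FPKM in T5, with no overlap between these days. Its log2 fold change was 4.23 ± 0.56 (SE) from T1 to T3 and 2.20 ± 0.40 from T3 to T5 (edgeR adjusted p = 1.71e-06 and 0.000175). On the withdrawal days it stood at 19.95, 25.10 and 10.71 FPKM in R1, at 74.46, 56.88 and 62.63 FPKM in R2 and at 65.70, 70.33 and 68.40 FPKM in R3. The step from R1 to R2 was the largest between neighbouring days on the FPKM scale, and R4 replicate 2, at 68.85 FPKM beside 21.91 and 41.52 FPKM in the other R4 libraries, lay among the R2 and R3 values.

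Lj3g3v1113160 began higher. It was at 7.85, 7.57 and 9.52 FPKM in T1, at 26.95, 33.45 and 34.15 FPKM in T3 and at 81.22, 122.78 and 190.92 FPKM in T5 (log2 fold change from T3 to T5 2.20 ± 0.33, edgeR adjusted p = 1.66e-05). The T5 libraries differed more than 2-fold among themselves and all lay above T3. Its level was 305 ± 100 FPKM in R1, 494 ± 56.7 FPKM in R2, 411 ± 4.98 FPKM in R3 and 175 ± 29.2 FPKM in R4. A further member, on the same chromosome but distant in ID number, had counts within 2% of it in the median library. In T3 that member was at 35.35, 33.64 and 44.36 FPKM, and its log2 fold change from T3 to T5 was 1.94 ± 0.28. How reads were divided between the 2 is not known, so they cannot be taken as independent.

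The 17 members called between T1 and T3 and not between T3 and T5 held the highest levels of the list, with R2 and R3 means from 5.76 to 6803 FPKM. Their median stood at 0.0347% of the R2 and R3 mean in T1, 16.3% in T3, 31.3% in T5 and 50.5% in T6. From T3 to T5 their median log2 fold change was 1.08, and the edgeR adjusted p was not under 0.05 in 16 of them. Lj1g3v5021150 and Lj1g3v4047270 had the largest rises. Lj1g3v5021150 had 0, 4 and 0 estimated counts in the T1 libraries and 595, 1786.5 and 1554.5 in T3, a fitted log2 fold change of 9.72 ± 0.97 (edgeR adjusted p = 2.46e-08). Without T1 replicate 2, the T1 library with counts, the fitted value was 13.23 and depends on the prior count. It stood at 102 ± 27.7 FPKM in T6, 191 ± 18.6 FPKM in R2 and 216 ± 14.6 FPKM in R3, and all 6 R2 and R3 libraries lay above the highest other library, R1 replicate 1 at 156.15 FPKM.

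Lj1g3v4047270 and Lj1g3v4047250 had the highest R2 and R3 means and belong to 5 members within 7 successive loci of chromosome 1. Lj1g3v4047250 was at 1.23, 3.10 and 0 FPKM in T1 and at 0.76, 9.90 and 96.46 FPKM in T2, so that 1 of the 3 libraries was far ahead on day 2. It was at 602.16, 1367.40 and 1363.62 FPKM in T3, 1405.97, 767.47 and 409.18 FPKM in T4 and 1981.49, 2517.52 and 2627.94 FPKM in T5. In R2 it stood at 6366.38, 6596.37 and 5390.06 FPKM and in R3 at 7816.68, 6414.38 and 8237.07 FPKM, whereas T6 replicate 2 reached 6445.17 FPKM, among the R2 values. For Lj1g3v4047270 the log2 fold change from T1 to T3 was 9.71 ± 1.32 (edgeR adjusted p = 2.59e-06) and 11 without T1 replicate 2.

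Together the 5 neighbours took 0.000344 ± 0.000375% of all counts in T1, 0.264 ± 0.102% in T3, 0.553 ± 0.0771% in T5, 1.04 ± 0.445% in T6, 1.52 ± 0.185% in R2, 1.81 ± 0.256% in R3 and 0.645 ± 0.142% in R5 (SD, n = 3). In R3 they held 69.4% of the counts of all 60 members. The share of whole count values was 8.33% to 16.7%, so reads may have been shared between models, and the 5 are not independent of each other. Of the 60 members, 14 had whole counts in all libraries, and 6 had another member at a different locus with nearly equal counts.

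The 25 members called in neither step had fitted log2 fold changes from -1.41 to 1.04 between T1 and T3. Of these 25, 21 differed over T1 to T5, beside 68.7% of the eligible models, which were not limited to those called in neither step. Their median stood at 50.3% of the R2 and R3 mean in T1, 70.9% in T3, 74.4% in T4, 70.9% in T5, 55.2% in T6, 65.8% in R1 and 59.5% in R4. The choice held R1, R4 and T6 below R2 and R3 and set no such limit on T1 to T5, so these medians are not compared. In 6 of the 25 the highest mean of T1 to T5 was above both R2 and R3, a count not made for the eligible loci.

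The remaining profiles were small. Of the 3 members that rose and then fell on nitrate, 2 are near neighbours on chromosome 6 and the other, Lj4g3v1085060, had the clearest maximum on the nitrate days. It was at 21.10, 29.07 and 20.46 FPKM in T1, 70.55, 59.84 and 68.76 FPKM in T2, 79.38, 63.17 and 41.91 FPKM in T3 and 18.54, 16.68 and 29.25 FPKM in T5. Its log2 fold change was 1.29 ± 0.30 from T1 to T3 and -1.33 ± 0.30 from T3 to T5 (edgeR adjusted p = 0.00152 and 0.00155). In R1 it was at 6.66, 6.76 and 7.53 FPKM, in R2 at 46.08, 33.01 and 39.67 FPKM and in R3 at 9.25, 11.62 and 13.58 FPKM. The R2 libraries stood far above R1, those of R3 overlapped R4 replicate 3 at 9.38 FPKM, and the T2 mean of 66.4 FPKM exceeded both.

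Lj3g3v1855560 ran the other way on nitrate. It was at 4.20, 4.13 and 3.31 FPKM in T0, at 1.98, 1.71 and 1.04 FPKM in T3 and at 0.17, 0.15 and 0.18 FPKM in T5 (log2 fold change from T3 to T5 -2.96 ± 0.45, edgeR adjusted p = 1.80e-05). In R1 it was still at 0.23, 0.18 and 0.67 FPKM, and then at 19.11, 22.95 and 21.77 FPKM in R2 and at 18.78, 30.64 and 25.74 FPKM in R3. All R2 and R3 libraries lay above every library of the other groups, of which R4 replicate 3 was the highest at 18.30 FPKM.

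Lj1g3v4726850 had a related course, at 2.40, 2.70 and 2.34 FPKM in T1 and 1.17, 1.06 and 1.01 FPKM in T3 (log2 fold change -1.29 ± 0.48, edgeR adjusted p = 0.0453). That fall was no longer called without any 1 of the 6 libraries (edgeR adjusted p from 0.0757 to 0.116). It stood at 1.99 ± 1.14 FPKM in R1, 9.98 ± 2.26 FPKM in R2, 14.5 ± 3.99 FPKM in R3 and 5.62 ± 1.25 FPKM in R5, with R4 replicate 2, at 8.76 FPKM, above R2 replicate 3 at 7.38 FPKM.

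**Figure D5:**
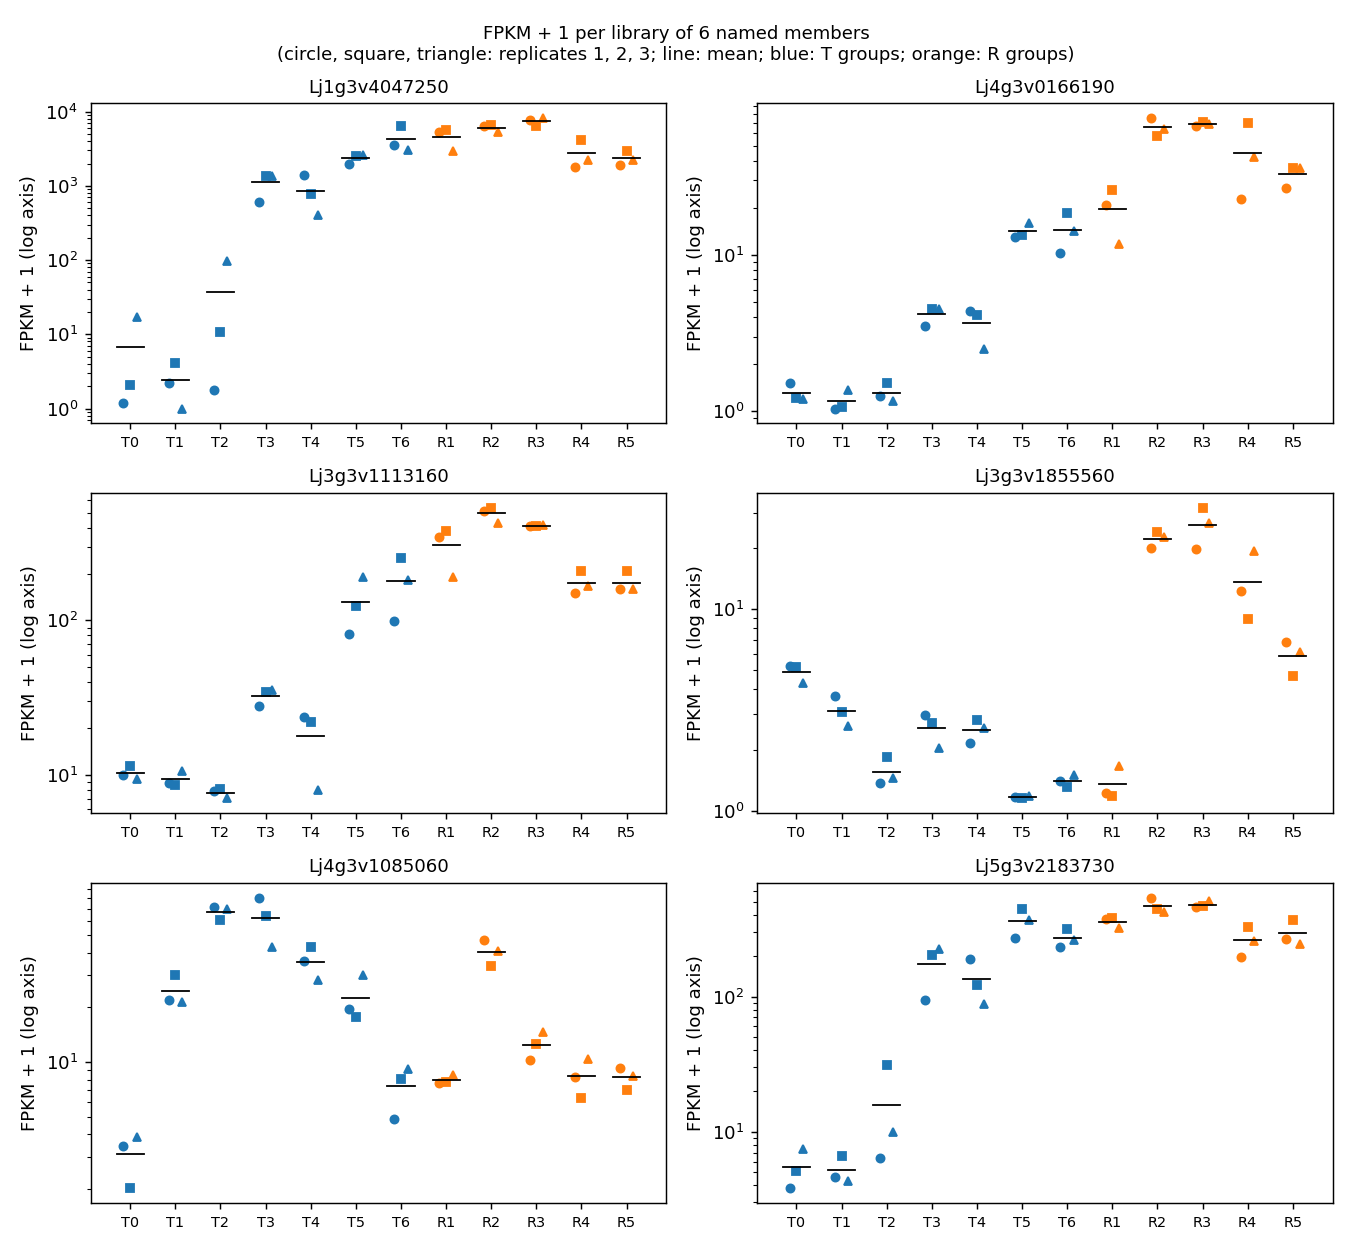
FPKM + 1 of 6 named members in each library, by group (log axes), with replicates 1, 2 and 3 as circles, squares and triangles and the group mean as a line. Lj3g3v1855560 lies at 0.15 to 0.18 FPKM in T5 and at 18.78 FPKM or more in R2 and R3, whereas Lj4g3v1085060 has its highest mean, 66.4 FPKM, in T2.

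Among the 5 nitrate days, the highest mean fell on T5 in 39 members (65.0%), beside 26.5% of the eligible loci. It fell on T4 in 10 (16.7%), on T3 in 5 (8.33%), on T2 in 4 (6.67%) and on T1 in 2 (3.33%). The eligible loci had 14.5%, 13.9%, 19.7% and 25.4% on these days, so the count for T4 was near their share. In 7 members the highest mean of T1 to T5 was above both R2 and R3, a count not made for the eligible loci. The T4 mean lay below both the T3 and the T5 mean in 40 members, beside 31.1% of the eligible loci. Every T4 library was below every T5 library in 28 members (46.7%), beside 17.0% of the eligible loci. The T3 mean was above the T4 mean in 47 members (78.3%), beside 60.98% of the eligible loci. Every T4 library was below every T3 library in 11 members (18.3%), beside 22.4% of the eligible loci. That side of the dip was thus more frequent among the members by means, and no more frequent by libraries free of overlap. The dip was not tested.

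Position, length and counting were features that the choice did not use. Of the 60, 15 were on chromosome 1, which holds 17.4% of the eligible loci, 14 were on unplaced sequence (29.5% of eligible loci) and between 4 and 7 on each other chromosome. On placed chromosomes 13 members formed 5 groups with at most 10 places between neighbours in ID order, 1 group of 5 and 4 pairs, which lay on chromosomes 1, 2, 3 and 6; no such count was made for the other eligible loci. The median length of the members' models was 1120 bp beside 1066 bp, from 127 to 6895 bp, and 86.7% were alone at their locus beside 85.6%. All 36 counts were whole in 23.3% of the members and 29.0% of the eligible models.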

How the data were processed

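Total RNA of nodules was sequenced from NEBNext Ultra II libraries, per the labels' protocols. The submitters' processing notes name fastp 0.22.0, HISAT2 and featureCounts. Neither build and annotation nor the treatment of strand and of multiply matching reads is stated there, so overlapping and antisense models cannot be separated. The authors deposited estimated counts and FPKM values for 50526 transcript models. FPKM gave the members and levels. Estimated counts were rounded and fitted for all 36 libraries in 1 model with edgeR 4.0.16 in R 4.3.3 (glmQLFit, glmQLFTest, TMM, filterByExpr). Calls needed a Benjamini-Hochberg adjusted p under 0.05 over 50475 models and at least a 2-fold change, and the test over T1 to T5 needed the adjusted p alone. The SE was derived from the fitted change and its F value. Lengths were derived from counts and FPKM. Counts were called nearly equal within 2% in the median library, and whole within 0.001.

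The members, comparisons and alternatives were chosen with earlier results of these data known. As the IDs have no names, those printed are ranks 1, 2 and 59 to 62, the 2 highest R2 and R3 means, and up to 2 rises and 2 falls per comparison (called, no overlap of libraries, at least 1 CPM). DESeq2 1.42.0 was an alternative, and the procedure was tested on simulated data. Over the 36 pairs within groups, counts differed by a chi-square of at least 10.1 per degree of freedom, and no library was treated as present more than once. Depth limits low members most, and FPKM takes no account of library composition.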

Additional observations from a re-analysis of the deposited data

How the results depend on the processing

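The 56 members that differed over T1 to T5 were 55 to 56 under 6 other settings (RLE size factors, no filter, DESeq2, the T1 to T5 libraries alone, counts summed per locus, a replicate block) and 50 to 56 without any 1 library. The 33 called between T1 and T3 were 33 to 34 and 30 to 32. The 17 called between T3 and T5 were 14 to 18 and 10 to 18, the lowest without T3 replicate 1, the cause of which was not tested. The replicate block gave 56, 33 and 18, and same-numbered libraries of T1, T3 and T5 correlated in their deviations from -0.239 to 0.229, so the numbers were not taken to pair libraries. Counting nearly equal members once, chosen after seeing the data, gave 53, 31 and 16, and counting the 5 neighbours once gave 52, 29 and 17. Of the 60 members, 42 to 55 stayed among the first 60 under 7 other settings of the rule, the fewest with a minimum of 1 FPKM, and 45 to 59 without any 1 of 21 libraries, but only 11 stayed under all 21 omissions. The maximum of T1 to T5 on T5, in 39 members, held in 41 with TMM-scaled FPKM and in 36 to 40 without any 1 library. Of 84 refits of the 7 named changes, 6 lost the call, all of them the fall of Lj1g3v4726850.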

Other observations

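The 2 members ranked first lie in a run of 7 successive loci of chromosome 1 whose levels moved together across single libraries. Of 25614 models with at least 5 FPKM in some library, 9 correlated with Lj1g3v2582370 at r of 0.8 or more over the 36 libraries (log2 of FPKM + 1), and 7 of these 9 belong to 6 loci of that run, with r from 0.812 to 0.979. All 9 had their highest value in R3 replicate 2. The most alike, Lj1g3v2582400.1, named after its values were seen, was at 2.21 FPKM in T1 replicate 2, 3.11 FPKM in T4 replicate 3, 10.53 FPKM in R2 replicate 1 and 12.45 FPKM in R3 replicate 2. The models share libraries and may share reads, as only 11.1% of the counts of Lj1g3v2582370 were whole. What sets these libraries apart was not tested.

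The 60 members together held 0.0824 ± 0.0063% of all counts in T0, 0.0916 ± 0.00409% in T1 and 0.136 ± 0.0117% in T2. They held 0.464 ± 0.116% in T3, 0.375 ± 0.132% in T4 and 0.845 ± 0.119% in T5. The sum stood at 1.38 ± 0.514% in T6, 1.55 ± 0.457% in R1, 2.28 ± 0.271% in R2 and 2.60 ± 0.282% in R3 (SD, n = 3). The share was 1.10 ± 0.436% in R4 and 1.03 ± 0.21% in R5. The 5 members of highest FPKM made up 71.9% of this sum in R3, so it describes those few loci and not the list.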
